A study of Mus musculus with 12 samples.

Results

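The mouse major histocompatibility complex, named H2, was followed through 12 left ventricle RNA libraries as the 45 genes, of 55401 in the count table, whose symbol begins with H2-. They comprise 2 classical class I genes (H2-K1 and H2-D1) and 29 other class I and class I-like genes of the Q, T and M groups. There are also 5 class II chain genes, 5 genes for the class II loading molecules DM and O, and 4 others. These others are H2-Ke6 and the pseudogenes H2-K2, H2-Pa and H2-Pb. The libraries come from 4 groups of 3. The first group was Prkca T497A mice, which carry a point mutation in protein kinase C alpha, after transverse aortic constriction (TAC), which narrows the aorta so that the ventricle pumps against a raised pressure. The second was wild-type mice after TAC, the third T497A mice after a sham operation and the fourth wild-type mice after sham. All had surgery at 10 weeks of age, with a 27-gauge needle for TAC, and tissue was taken 1 week later. The labels give no strain or sex and number the libraries without tying each to a mouse of its own. The p-values therefore speak of the spread among libraries. Within each group that spread exceeded counting error, with a chi-square per degree of freedom of 11.4 to 153 between pairs of libraries. Counting error alone would give about 1, and what else the spread holds was not tested.

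Class I molecules present peptides made inside the cell to CD8 T cells and natural killer cells, and need beta-2 microglobulin (B2m) and the peptide transporter Tap1. Nearly all cells make them, and interferon raises them, in large part through the transactivator Nlrc5. Class II molecules present peptides taken up from outside to CD4 T cells. In the heart they belong mainly to macrophages, dendritic cells and B cells, under the transactivator Ciita, and their chains are escorted by the invariant chain Cd74. A DM molecule then exchanges the remnant of that chain for a peptide, and the O molecule restrains DM. The alpha chain of the E class II molecule, encoded by H2-Ea, is a textbook case of inherited difference. Mice with the b haplotype, such as C57BL/6, carry a deletion at the start of H2-Ea and make no transcript. Some other haplotypes, but not all, make it.

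Total counts ran from 58932759 to 72594085 reads per library. Of the 45 members, 12 had 0 reads in every library, 5 had reads but too few to test, and 28 passed the filter on low counts and were tested with 17699 genes in all. A gene passes this filter through the group in which it is highest, so the 28 are not a sample of all members. Levels are normalised read counts (CPM with TMM factors), and a gene counts as called where edgeR's quasi-likelihood test, with Benjamini-Hochberg adjustment over all genes tested, gave an adjusted p under 0.05. The cell type label reads cardiomyocyte, yet the summed CPM of 15 macrophage marker genes was 316 to 1071 per library and none of these markers was at 0 in any library. The 3 T497A sham libraries held 160 to 215 CPM of the RNA Xist and at most 0.396 CPM of the Y-linked Ddx3y. The other 9 held at most 0.751 and at least 73.6 CPM. High Xist with almost no Ddx3y is the pattern of female tissue, and the reverse that of male tissue. Genotype or TAC effects in any comparison with the T497A sham group, the difference between the TAC effects included, cannot be told apart from this. The mutation changes a base and leaves no mark in a count table, so the genotype labels were not checked.

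The transcripts that set libraries apart within the complex were those of H2-Ea and of a few class I genes. The reference annotation (GENCODE M21 on GRCm38) lists H2-Ea as a polymorphic pseudogene on chromosome 17, 34341959 to 34344645, minus strand, and none of the 50-base windows of its transcripts occurs in another gene. The first 150 bases of its annotated coding sequence in that reference are shown because the reads of this gene divide the libraries. They begin with gag and not with the start codon atg, so they need not be where the protein begins. No base is in capitals, and the bases are those of the reference, not of these mice.

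H2-Ea coding sequence, chr17:34344495-34344644, minus strand: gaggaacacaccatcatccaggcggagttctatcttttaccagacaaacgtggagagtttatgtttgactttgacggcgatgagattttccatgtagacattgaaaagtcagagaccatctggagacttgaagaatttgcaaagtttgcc

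H2-Ea had 0, 0 and 0 reads in the T497A TAC libraries, 574, 2043 and 0 in the wild-type TAC libraries, 1297, 0 and 0 in the T497A sham libraries, and 2, 0 and 0 in the wild-type sham libraries. Wild-type TAC libraries 1 and 2 and T497A sham library 1 therefore held it, and the other 9 held 2 reads at most. A count of 0 allows up to 3 reads in a library. Set against its partner chain gene H2-Eb1, which every library expressed, H2-Ea made up 13.2% (12.2 to 14.2), 26% (25 to 27) and 22.8% (21.7 to 23.9) of the reads of both genes in these 3 libraries, in the order just named, with exact 95% intervals that cover counting error only. The presence of H2-Ea followed neither genotype nor surgery as labelled.

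H2-Q1, a class I gene of the Q group, had 3, 0 and 0 reads in T497A TAC, 56, 269 and 0 in wild-type TAC, 348, 3 and 0 in T497A sham, and 3, 0 and 1 in wild-type sham. Its neighbour H2-Q2 had 12, 6 and 0 reads in T497A TAC, 61, 269 and 4 in wild-type TAC, 295, 3 and 1 in T497A sham, and 6, 1 and 2 in wild-type sham. The same 3 libraries were high for both. They were also the high ones for the pseudogene H2-Q3, with 27, 70 and 95 reads against at most 1 in any other library, and for H2-Q10, which encodes a secreted class I molecule made mainly by liver, with 57, 189 and 239 reads against at most 14. H2-Bl had 5, 25 and 24 reads there and 0 in each of the other 9. For these genes the groups differ by which of their libraries hold reads assigned to the gene. A fitted fold change then depends on the prior count, so counts stand here in place of folds. Whether the sequence of these mice differs from the reference, so that reads of members are lost or assigned to another gene, was not tested.

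**Figure D1:**
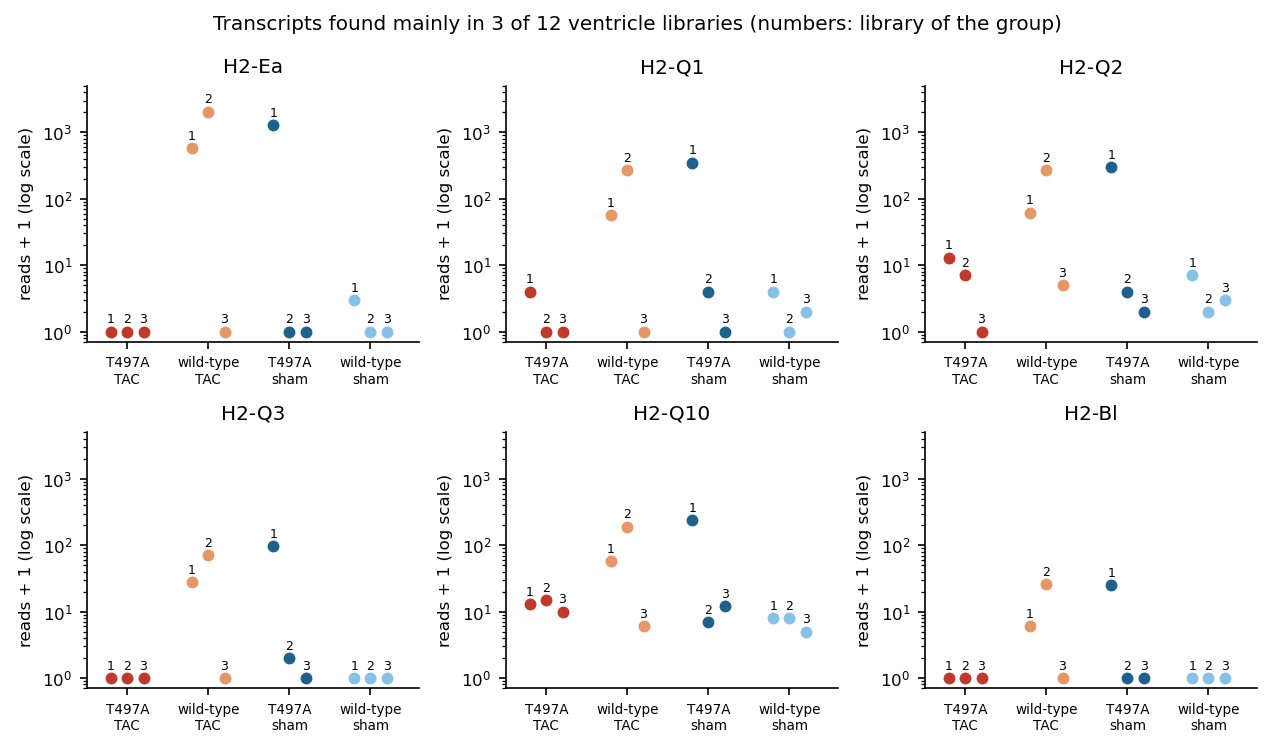
Reads plus 1, on a log axis, of H2-Ea, H2-Q1, H2-Q2, H2-Q3, H2-Q10 and H2-Bl in each of the 12 libraries, by group; the small number beside a point is the library of the group. Wild-type TAC 1 and 2 and T497A sham 1 stand above the other 9 in every panel, with 574, 2043 and 1297 reads of H2-Ea.

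Over all genes, 10 had at least 5 reads in each of these 3 libraries and a level more than 4-fold above the highest of the other 9, with 0.05 CPM added to both, by a rule chosen after the counts were seen. Of the 10, 6 lie on chromosome 17, 4 of them members (H2-Ea, H2-Q1, H2-Q2 and H2-Q3), and 1 each lies on chromosomes 4, 5, 6 and 18. H2-Bl did not pass because of the added 0.05 CPM. No gene was lower in the 3 by the same rule. The gene on chromosome 5 is Adgrf3, an adhesion G protein-coupled receptor, with 4, 4 and 0 reads in T497A TAC, 516, 1798 and 2 in wild-type TAC, 3146, 37 and 23 in T497A sham, and 4, 7 and 0 in wild-type sham. On chromosome 17 the unnamed gene Gm10503, which starts at 30920338, before the first member, had 0 reads in each of the other 9 libraries and 69, 216 and 195 in the 3. Of the 23 tested members other than H2-Ea, H2-Q1, H2-Q2, H2-Q3 and H2-Q10, T497A sham 1 ranked among the 3 highest libraries for 19. Wild-type TAC 2 did so for 15, wild-type TAC 1 for 13 and wild-type sham 3 for 8, while wild-type sham 1 was the lowest for 12. The same ranking was not made over all tested genes, so these counts do not show whether members stand apart from other genes. The pseudogene H2-K2 is 1 of these 23, with 255, 602 and 627 reads in wild-type TAC 1, wild-type TAC 2 and T497A sham 1. It had at most 181 in any other library.

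The classical class I genes were the most abundant members and did not follow the groups. H2-K1 (chromosome 17, 33996017 to 34000347, minus strand) stood at 161, 185 and 205 CPM in T497A TAC, 199, 208 and 184 in wild-type TAC, 362, 159 and 178 in T497A sham, and 128, 180.2 and 240.1 in wild-type sham. T497A sham 1 was the highest of all 12 and wild-type sham 1 the lowest, and in each pair of groups the ranges overlapped. H2-D1 (35262730 to 35267499, plus strand) stood at 213, 250.4 and 266 CPM in T497A TAC, 263, 234 and 266 in wild-type TAC, 307, 216 and 255 in T497A sham, and 175, 239 and 276 in wild-type sham, with the same highest and lowest libraries. Between TAC and sham in wild type, the log2 fold change of H2-K1 was 0.11 ± 0.33 (SE, adjusted p = 0.81) and that of H2-D1 was 0.14 ± 0.17 (adjusted p = 0.51). Both turned slightly negative without wild-type sham 1 (-0.10 for H2-K1 and -0.02 for H2-D1), and with library totals in place of TMM factors H2-D1 was called higher (0.47, adjusted p = 0.042). In T497A the log2 fold change of H2-K1 between TAC and sham was -0.34 ± 0.33 (adjusted p = 0.51), and it was 0.13 without T497A sham 1. Between T497A and wild type it was -0.10 ± 0.33 after TAC (adjusted p = 0.85) and 0.35 ± 0.33 after sham (adjusted p = 0.62). Without T497A sham 1 the difference after sham was -0.12.

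Per kilobase of exon, and over the 12 libraries, mean levels ran from 95.7 CPM for H2-D1 and 67.8 for H2-K1 to 23.3 for the class II beta chain gene H2-Eb1, 17.6 for H2-Ab1 and 13.3 for the class II alpha chain gene H2-Aa. H2-Q4, a class I gene of the Q group, followed at 12.2 CPM per kilobase, H2-T23 at 11.9 and H2-Q6 at 9.67. Within wild-type sham the first 3 stood at 89.3 ± 19.9, 62.2 ± 19.1 and 19.3 ± 6.35 CPM per kilobase (SD, n = 3). There H2-Aa (10.2 ± 2.76), H2-Q4 (10.7 ± 2.41), H2-Q6 (10.4 ± 2.96) and H2-T23 (10.0 ± 2.1) lay closer to each other than the spread between libraries. The DM genes were lower, at 1.96 CPM per kilobase for H2-DMb1, 1.4 for H2-DMa and 0.453 for H2-DMb2 over the 12 libraries.

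**Figure D2:**
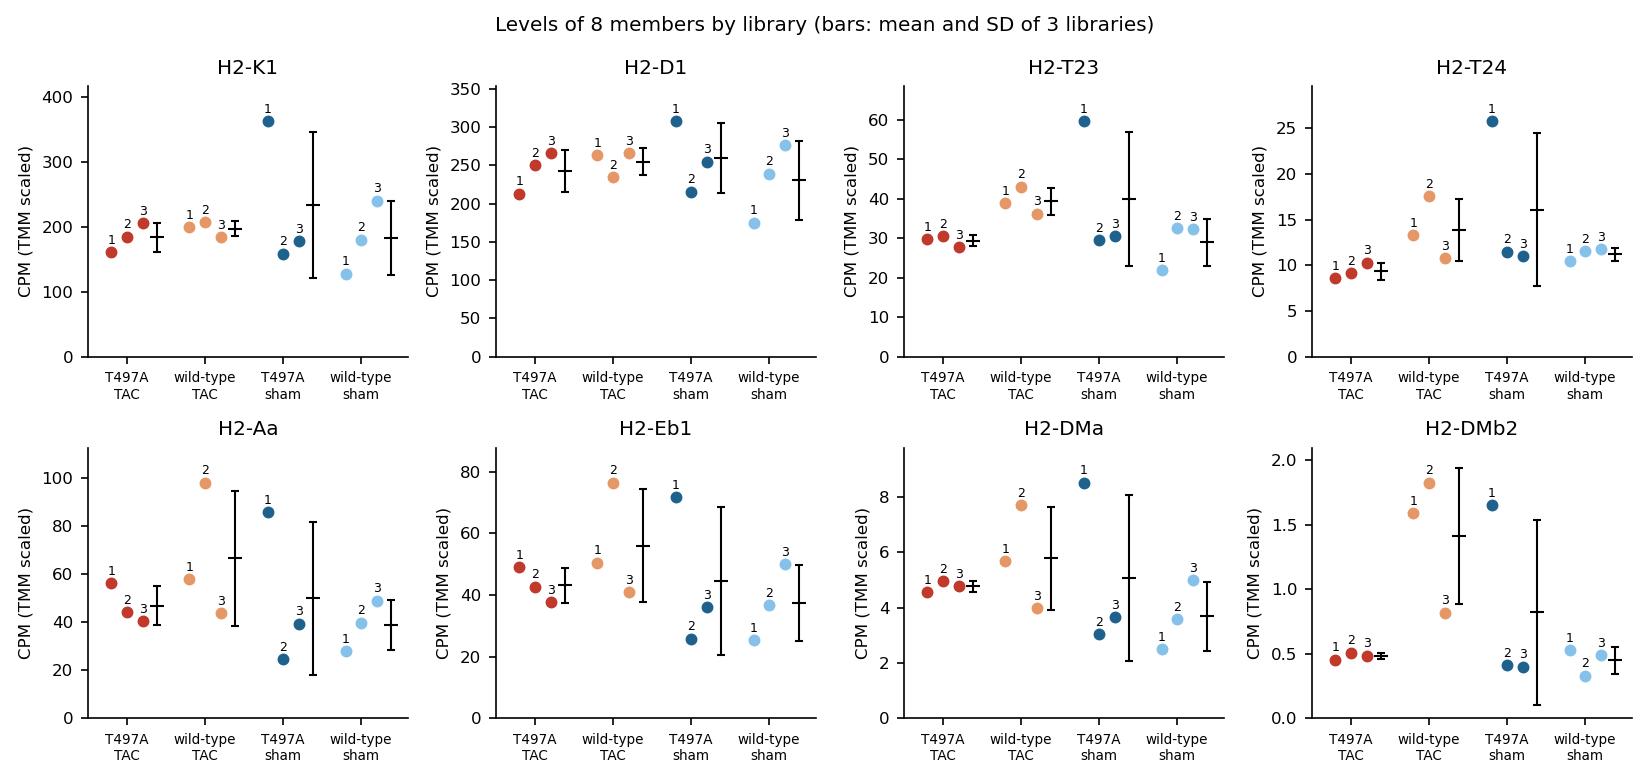
Levels in CPM of 4 class I members (top) and 4 class II chain or loading members (bottom) in each library, by group, with the mean and SD of 3 libraries as a black bar; numbers mark the library of the group. T497A sham 1 is the highest library for H2-K1 (362 CPM) and wild-type TAC 2 for H2-Aa (97.8 CPM).

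Among the other class I genes, T497A sham 1 was again high. H2-T23, which encodes Qa-1, a molecule that shows leader peptides of other class I molecules to natural killer cell receptors, stood at 29.7, 30.6 and 27.8 CPM in T497A TAC, 38.9, 43.0 and 36.2 in wild-type TAC, 59.6, 29.6 and 30.6 in T497A sham, and 21.9, 32.6 and 32.3 in wild-type sham. Its 3 wild-type TAC libraries lay above its 3 wild-type sham libraries and above its 3 T497A TAC libraries, and neither difference was called. H2-T24 stood at 8.56, 9.12 and 10.3 CPM in T497A TAC, 13.3, 17.6 and 10.8 in wild-type TAC, 25.7, 11.5 and 11.0 in T497A sham, and 10.4, 11.5 and 11.8 in wild-type sham. Its T497A TAC and T497A sham libraries did not overlap, with a log2 fold change of -0.78 ± 0.31 that was not called (adjusted p = 0.094). H2-T22 and H2-T10, whose products are recognised by gamma delta T cells, share much of their sequence, with 46.5% and 49.6% of their 50-base windows found in no other gene, so their counts are uncertain. H2-Q4, H2-Q5 and H2-Q6 share 35.0 to 36.4% of theirs with other genes. H2-M3, which presents formylated bacterial peptides, ranged from 4.61 to 7.31 CPM over the 12 libraries.

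The class II chain genes H2-Aa, H2-Ab1 and H2-Eb1 had their highest levels in wild-type TAC 2 and T497A sham 1, while H2-Eb2 had 19 reads at most. H2-Aa (34282744 to 34287823, minus strand) stood at 56.1, 44.1 and 40.3 CPM in T497A TAC, 57.7, 97.8 and 43.8 in wild-type TAC, 85.6, 24.5 and 39.4 in T497A sham, and 27.9, 39.7 and 48.8 in wild-type sham. The 2 highest libraries thus belong to different genotypes and different operations, and every pair of groups overlapped. H2-Ab1 ranged over 37.3 to 49.5 CPM in T497A TAC, 40.1 to 82.8 in wild-type TAC, 26.1 to 71.9 in T497A sham, and 25.02 to 46.4 in wild-type sham. H2-Eb1 (34305867 to 34316674, plus strand) ranged over 37.7 to 49.1 CPM in T497A TAC, 41.0 to 76.4 in wild-type TAC, 25.9 to 71.8 in T497A sham, and 25.5 to 50.1 in wild-type sham. Both genes had the same 2 libraries on top.

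In wild type, the log2 fold change between TAC and sham was 0.78 ± 0.48 for H2-Aa (adjusted p = 0.22), 0.69 ± 0.42 for H2-Ab1 (adjusted p = 0.21) and 0.58 ± 0.41 for H2-Eb1 (adjusted p = 0.28). None was called, and over the 23 alternative settings the value of H2-Aa ran from 0.19 to 1.12 (adjusted p from 0.059 to 0.79). In T497A, H2-Aa differed by -0.09 ± 0.48 between TAC and sham (adjusted p = 0.92), and by 0.55 without T497A sham 1 (adjusted p = 0.39). Between T497A and wild type, H2-Aa differed by -0.51 ± 0.48 after TAC (adjusted p = 0.46) and by 0.36 ± 0.48 after sham (adjusted p = 0.75). Without T497A sham 1 the difference after sham was -0.28. In bulk tissue, fewer cells of a type and less RNA per cell cannot be told apart.

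Of the loading genes, H2-DMb2, a second copy of the DM beta chain gene, was the one whose groups were called apart. It stood at 0.455, 0.508 and 0.486 CPM in T497A TAC, 1.59, 1.82 and 0.819 in wild-type TAC, 1.65, 0.411 and 0.399 in T497A sham, and 0.529, 0.330 and 0.490 in wild-type sham. All 3 wild-type TAC libraries lay above all T497A TAC and all wild-type sham libraries, and T497A sham 1 lay among them. It rose in wild type with TAC (log2 fold change 1.64 ± 0.50, adjusted p = 0.014) and was lower in T497A TAC than in wild-type TAC (-1.54 ± 0.49, adjusted p = 0.025). The log2 effect of TAC in T497A minus that in wild type was -2.40 ± 0.71 (adjusted p = 0.020). Without the 3 libraries that hold H2-Ea transcripts, which left 1 wild-type TAC library that is assumed to vary like the other groups, none of the 3 was called (0.87 with adjusted p = 0.19, -0.76 with adjusted p = 0.33, and -0.61 with adjusted p = 0.59). Leaving out single libraries ended the first call without wild-type sham 2 (1.46, adjusted p = 0.059), and the second without T497A TAC 1 (-1.50, adjusted p = 0.074), T497A TAC 2 (-1.56, adjusted p = 0.067), T497A TAC 3 (-1.54, adjusted p = 0.068), wild-type TAC 1 (-1.45, adjusted p = 0.069) or wild-type TAC 2 (-1.31, adjusted p = 0.081). The difference between the TAC effects was no longer called when T497A sham 1 (-1.39, adjusted p = 0.063) or wild-type sham 2 (-2.22, adjusted p = 0.053) was left out. H2-DMb2 had 18 to 139 reads per library and shares 25.9% of its windows, mostly with H2-DMb1.

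H2-DMa, the alpha chain of DM, stood at 4.57, 4.95 and 4.78 CPM in T497A TAC, 5.68, 7.69 and 3.98 in wild-type TAC, 8.51, 3.05 and 3.66 in T497A sham, and 2.49, 3.58 and 4.99 in wild-type sham. H2-DMb1 stood at 3.81, 4.38 and 3.05 CPM in T497A TAC, 3.19, 5.59 and 2.92 in wild-type TAC, 4.33, 1.83 and 2.33 in T497A sham, and 2.44, 2.35 and 3.31 in wild-type sham. All groups overlapped for both, and between TAC and sham in wild type H2-DMa differed by 0.65 ± 0.39 (adjusted p = 0.20) and H2-DMb1 by 0.53 ± 0.32 (adjusted p = 0.19). H2-DMa was called in 2 of 23 alternative settings, limma-voom (0.63, adjusted p = 0.048) and without T497A sham 1 (0.65, adjusted p = 0.049), and ran from 0.12 to 0.99 over all of them. H2-DMb1 was called in 1, with library totals (0.87, adjusted p = 0.044). The O chain gene H2-Ob ranged from 0.566 to 1.39 CPM over the 12 libraries, and H2-Oa had 17 reads at most.

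Against this variation the test called few members. Between TAC and sham in T497A it called 0 of 28, where 24.4% of all tested genes were called (12.9% higher and 11.4% lower); 2 members had an unadjusted p under 0.05, DESeq2 called 1 (H2-Ea, lower) and limma-voom called 1 (H2-Ob, higher). Their median log2 fold change was -0.25, against 0 over all genes. Without T497A sham 1, 2 members were called higher, H2-Ob (0.89 ± 0.28, adjusted p = 0.042) and H2-T10 (1.18 ± 0.37, adjusted p = 0.038). In wild type 4 of 28 members (14.3%) were called, where 49.9% of all genes were. Of these, 3 were higher and 1 lower, against 25.9% and 24% of all genes. The median was 0.61, against 0.03 over all genes, and 24 of 28 estimates were positive. Both medians and this count include the 5 members with near-absent groups, H2-Ea, H2-Q1, H2-Q2, H2-Q3 and H2-Q10. The direction of these 5 follows which groups hold the 3 libraries with H2-Ea, and a TAC effect apart from that was not tested. With library totals in place of TMM factors, a scaling that moved the median of all genes to 0.36, 10 members were called higher and 1 lower.

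The other calls in wild type were of low counts or of a gene with another role. H2-T-ps, a class I pseudogene, had 5, 5 and 29 reads in T497A TAC, 38, 64 and 22 in wild-type TAC, 39, 10 and 8 in T497A sham, and 7, 4 and 5 in wild-type sham. Its wild-type TAC libraries lay above its wild-type sham libraries, and in wild type it rose with TAC by 2.52 ± 0.80 on the log2 scale (adjusted p = 0.017). That call was lost without wild-type TAC 2 (2.06, adjusted p = 0.064), wild-type sham 2 (2.38, adjusted p = 0.059) or wild-type sham 3 (2.46, adjusted p = 0.056). H2-M5, a class I gene of the M group, had 22, 16 and 1 reads in wild-type TAC and 2, 2 and 0 in wild-type sham, which overlap, with a log2 fold change of 2.78 ± 1.03 (adjusted p = 0.036). It lost its call in 8 of 21 alternative settings (adjusted p from 0.0068 to 0.80), among them without T497A TAC 2 (2.77), wild-type TAC 1 (2.16), wild-type TAC 2 (2.61), or any of wild-type sham 1 (3.14), 2 (3.20) and 3 (2.22). H2-Ke6 lies in the complex but encodes hydroxysteroid dehydrogenase 8, a mitochondrial enzyme. Its level was 0.428, 0.617 and 0.819 CPM in wild-type TAC and 1.57, 1.34 and 1.72 in wild-type sham, with no overlap, and fell by 1.31 on the log2 scale (SE 0.30, adjusted p = 0.0020). It shares 70.5% of its windows with other genes, mostly Gm20427, so its count is uncertain. Without wild-type sham 2 no member was called higher, without wild-type TAC 2 or wild-type sham 3 it was 1, and without T497A sham 1 it was 11. Without wild-type sham 1, 2 members were called lower, and without the 3 libraries with H2-Ea neither direction held a call.

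Between T497A TAC and wild-type TAC, 1 member of 28 (3.57%) was called, H2-DMb2, lower in T497A, where 35.7% of all genes were called, 17.8% as higher and 17.9% as lower. Without T497A sham 1, 9 members were called lower, and without T497A TAC 1, T497A TAC 2, wild-type TAC 1 or wild-type TAC 2 none was. Between T497A sham and wild-type sham 0 of 28 were called, where 5.79% of all genes were (2.99% higher and 2.80% lower); 2 had an unadjusted p under 0.05, and DESeq2 and limma-voom called none. The 2 TAC effects were called apart for 3 of 28 members (10.7%), all lower in T497A (H2-DMb2, H2-T-ps and H2-Q1), where 29.5% of all genes were called, 15.3% as higher and 14.2% as lower. The calls in these comparisons share groups of libraries, and that of H2-Q1 follows which groups hold the libraries with its reads. Without T497A sham 1 or without wild-type sham 2 no member was called; without T497A TAC 1, T497A TAC 2, wild-type TAC 1, wild-type TAC 2, wild-type sham 1 or wild-type sham 3 it was 1, H2-DMb2; without wild-type TAC 3, T497A sham 2 or T497A sham 3 it was 5, 6 and 7. With the replicate number as a block, 3 members were likewise called, but H2-T-ps was not among them (adjusted p = 0.078).

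**Figure D3:**
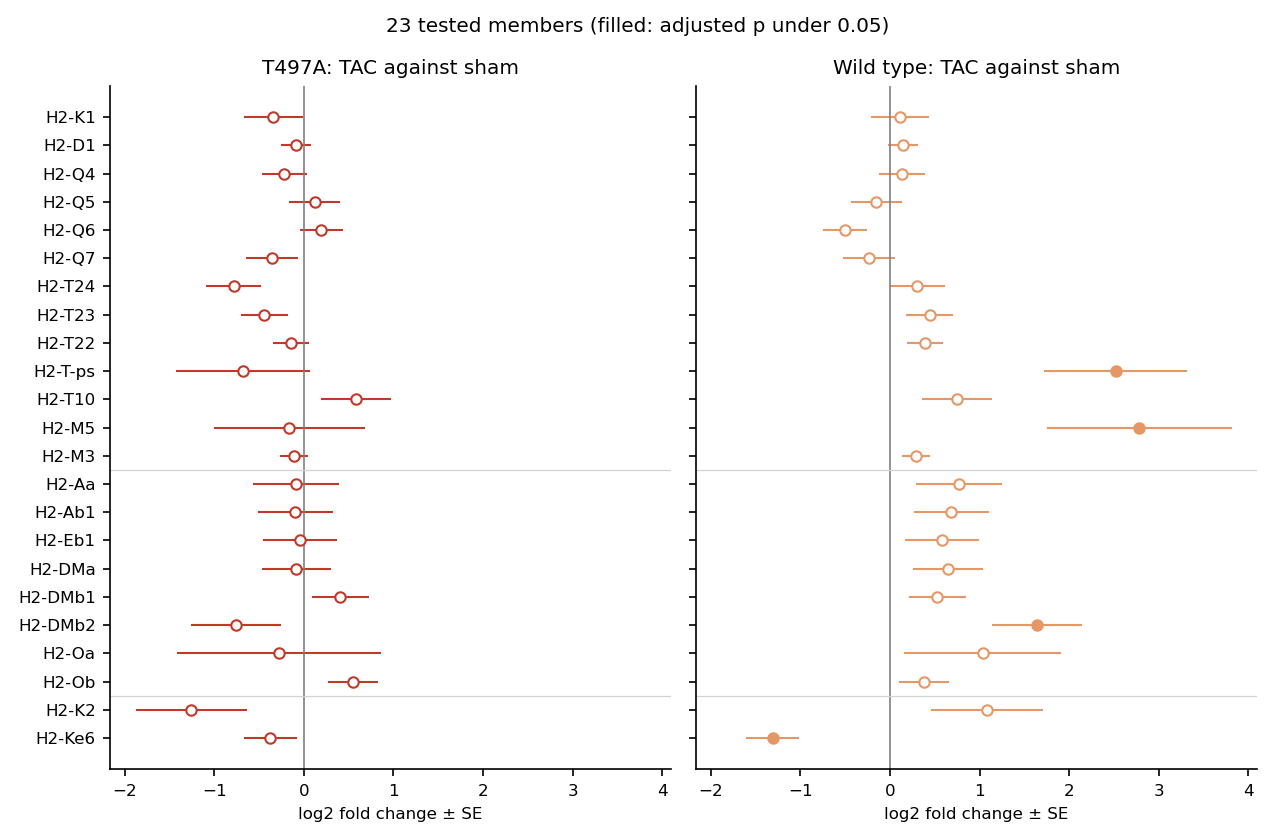
Log2 fold change between TAC and sham with its standard error for 23 of the 28 tested members, in T497A (left) and wild type (right); filled points have an adjusted p under 0.05, and lines part class I, class II and other members. The 5 members with near-absent groups (H2-Ea, H2-Q1, H2-Q2, H2-Q3 and H2-Q10) are left out; 4 members are called in wild type and none in T497A.

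Of 25 genes that make and load the peptides, 8 were called in wild type with TAC, next to 4 of 28 members and 49.9% of all genes. Of 10 partners of class II, 5 rose in wild type with TAC, where 25.9% of all genes did, and none fell: Ctss and Ctsl, cathepsins that cut the invariant chain, Ifi30, a lysosomal thiol reductase, Lgmn, an asparaginyl protease, and Marchf1, a ubiquitin ligase that removes class II from the surface. The median log2 fold change of the 10 was 0.78. Ctss stood at 26.3, 24.002 and 22.4 CPM in T497A TAC, 51.5, 96.1 and 43.4 in wild-type TAC, 22.3, 14.3 and 18.3 in T497A sham, and 13.3, 16.3 and 17.6 in wild-type sham. Its wild-type TAC libraries lay above all 9 others, and it rose by 2.02 ± 0.30 on the log2 scale (adjusted p = 0.00035). Ifi30 stood at 8.39, 8.62 and 7.44 CPM in T497A TAC, 15.7, 23.5 and 11.96 in wild-type TAC, 7.51, 7.22 and 7.22 in T497A sham, and 5.70, 5.48 and 6.42 in wild-type sham. It rose by 1.54 ± 0.19 (adjusted p = 1.4e-05), again with all wild-type TAC libraries on top. Lgmn rose by 0.73 ± 0.12 (adjusted p = 0.00032), Marchf1 by 1.18 ± 0.25 (adjusted p = 0.0012; 0.50 and adjusted p = 0.12 without the 3 libraries that hold H2-Ea) and Ctsl by 0.44 ± 0.07 (adjusted p = 0.00011). In T497A, where 24.4% of all genes were called, Rfx5 alone of the 10, a factor that binds class I and class II promoters, was called (0.73 ± 0.22, adjusted p = 0.026), a call lost in 6 of 23 alternative settings, among them without T497A TAC 2 (0.64), T497A TAC 3 (0.74), T497A sham 1 (0.48) or T497A sham 3 (0.77). Between T497A TAC and wild-type TAC 5 of the 10 were lower, where 17.9% of all genes were, among them Ctss (-1.39 ± 0.29, adjusted p = 0.0047), Ifi30 (-1.06 ± 0.18, adjusted p = 0.00054) and Ctsl (-0.46 ± 0.07, adjusted p = 0.00018). Cd74 and Ciita were called in no comparison, although Ciita was called higher with TAC in 2 of 23 alternative settings in T497A and in 2 in wild type, in both cases without T497A sham 1 among them. Cd74 was called in 1, limma-voom in wild type (0.62, adjusted p = 0.039). Cd74 stood at 132, 111 and 103 CPM in T497A TAC, 145, 264 and 107 in wild-type TAC, 216, 74.8 and 105 in T497A sham, and 69.7, 91.4 and 129 in wild-type sham, and its 2 highest libraries were those of H2-Aa. Its log2 fold change in wild type was 0.83 ± 0.46 (adjusted p = 0.17).

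Of 15 partners of class I, 1 rose and 2 fell in wild type with TAC, where 25.9% of all genes rose and 24% fell. Pdia3, a disulfide isomerase of the loading complex, rose (0.65 ± 0.11, adjusted p = 0.00018), while Psme1, a proteasome activator subunit that interferon induces, fell by 0.76 (SE 0.13, adjusted p = 0.00031) and the chaperone Canx by 0.36 (SE 0.06, adjusted p = 0.00011). With library totals in place of TMM factors Canx differed by -0.02 and was not called (adjusted p = 0.76). In T497A 2 fell, where 11.4% of all genes did, Canx by 0.42 (SE 0.06, adjusted p = 0.00012) and the chaperone Calr by 0.50 (SE 0.06, adjusted p = 8.1e-05). Between T497A TAC and wild-type TAC, where 35.7% of all genes were called, 3 of the 15 were: Calr (-0.44 ± 0.06, adjusted p = 0.00012) and Pdia3 (-0.77 ± 0.11, adjusted p = 0.00011) were lower, and Psme1 was higher (0.62 ± 0.13, adjusted p = 0.0023). B2m, Tap1 and Nlrc5 were called in no comparison, and none of the 25 partners was called between the sham groups, where 5.79% of all genes were. B2m stood at 211, 260 and 273 CPM in T497A TAC, 296, 339 and 289 in wild-type TAC, 477, 212 and 243 in T497A sham, and 173, 216 and 262 in wild-type sham. Its wild-type TAC libraries lay above its wild-type sham libraries with no overlap, at 0.50 ± 0.29 (adjusted p = 0.19; 0.015 to 0.42 over its alternatives), and it was called in 4 of 23 alternative settings, among them without T497A sham 1.

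Of 15 interferon-gamma response genes, 9 had their highest level in T497A sham 1, and 3 had it in wild-type TAC 2, 1 in wild-type TAC 1 and 2 in wild-type sham 2. Nlrc5 was measured at 5.22, 6.69 and 7.75 CPM in T497A TAC, 5.89, 7.80 and 6.19 in wild-type TAC, 34.3, 5.71 and 6.14 in T497A sham, and 4.69, 6.04 and 10.6 in wild-type sham. Tap1 reached 55.2 CPM in T497A sham 1, against 10.1 to 21.98 in the other 11. The summed CPM of the 15 was 1187 in T497A sham 1 and 459 to 617 elsewhere. The list holds the receptor genes Ifngr1 and Ifngr2 and the kinase gene Jak2, and without these 3 the sum was 904 in T497A sham 1 and 149 to 287 elsewhere. Wild-type sham 1, the lowest library for both H2-K1 and H2-D1, was also the lowest for both sums. Of the 15, 2 were called higher with TAC in T497A (Cxcl10 and Ifngr2), and in wild type 3 higher (Cxcl10, Irf8 and Ifngr1) and 1 lower (Ifngr2), next to 24.4% and 49.9% of all genes. In wild-type TAC 1 and 2, the other libraries with H2-Ea, the sum of 15 was 498 and 489, within the range of the remaining libraries. The part of the interferon genes in the levels of class I was not tested.

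**Figure D4:**
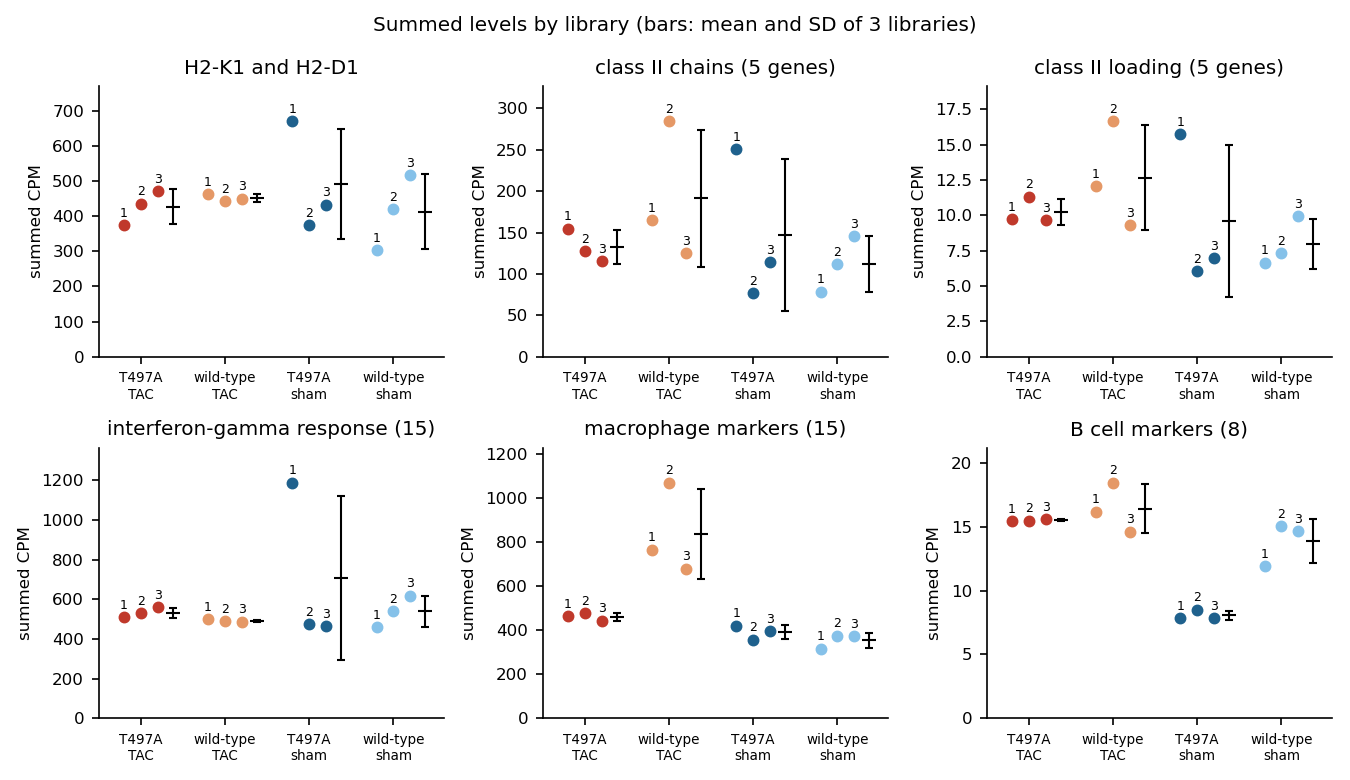
Summed CPM of the classical class I genes, the class II chain genes, the class II loading genes, 15 interferon-gamma response genes, 15 macrophage markers and 8 B cell markers in each library, by group, with the mean and SD of 3 libraries as a black bar. T497A sham 1 is highest for class I (669.5 CPM) and the interferon genes (1187 CPM), and wild-type TAC 2 for class II chains (284 CPM) and macrophage markers (1071 CPM).

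Markers of cells that make class II differed in how many were called. The summed macrophage markers ran from 443 to 480 CPM in T497A TAC, 681 to 1071 in wild-type TAC, 358 to 421 in T497A sham, and 316 to 376 in wild-type sham. Of the 15, 6 rose with TAC in T497A, where 12.9% of all genes did, and 14 in wild type, where 25.9% did. All 9 dendritic cell markers rose in wild type and none was called in T497A; their sum ran from 24.9 to 27.8 CPM in T497A TAC, 31.4 to 38.4 in wild-type TAC, 22.4 to 23.8 in T497A sham, and 19.1 to 21.7 in wild-type sham. A single gene, Zbtb46, held 14.7 to 20.2 CPM of it, and without it the sum ran from 7.61 to 9.25 CPM in T497A TAC, 12.3 to 18.8 in wild-type TAC, 7.09 to 8.26 in T497A sham, and 3.82 to 5.66 in wild-type sham. Class II sums did not keep that order: the 5 chain genes summed to 155, 128 and 115 CPM in T497A TAC, 165, 284 and 125 in wild-type TAC, 250.5, 76.4 and 114 in T497A sham, and 78.5, 112 and 145 in wild-type sham. Wild-type TAC 2 was the highest library for both sums, with 1071 CPM of macrophage markers and 284 CPM of class II chains. Wild-type sham 1 was low for both, with 316 and 78.5 CPM. Wild-type TAC 3 held 681 CPM of macrophage markers with 125 CPM of class II chains, and T497A sham 1 held 421 with 250.5. The class II sum includes H2-Ea, at 26.8 CPM in wild-type TAC 2, 21.2 in T497A sham 1 and 7.67 in wild-type TAC 1. B cell markers summed to 15.5 to 15.6 CPM in T497A TAC, 14.6 to 18.4 in wild-type TAC, 7.84 to 8.5 in T497A sham, and 11.9 to 15.1 in wild-type sham; 3 of the 8 were called higher with TAC in T497A and 2 in wild type. For the T cell and natural killer markers the sum was 2.28 to 3.54 CPM in T497A TAC and 3.54 to 5.37 in wild-type TAC. It was 2.97 to 5.45 CPM in T497A sham and 2.13 to 3.685 in wild-type sham. T497A sham 1 (5.45 CPM) and wild-type TAC 2 (5.37 CPM) were the highest libraries. The part of these cells in the levels of class II was not tested.

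The 45 members span 3.51 megabases of chromosome 17, from 33974659 to 37483552, and 278 genes that are no members lie among them, 106 of them tested. The neighbours include Tap1, Tap2, Psmb8 and Psmb9, which are also counted above as partners of class I. Of these neighbours 14.2% were called between TAC and sham in T497A, where 24.4% of all tested genes were. In wild type 45.3% were called, next to 49.9% of all genes. Of the 28 members 0 and 4 were called in these comparisons. Between T497A TAC and wild-type TAC 28.3% of the neighbours were called, next to 35.7% of all genes. Between the sham groups none was, next to 5.79% of all genes.

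**Figure D5:**
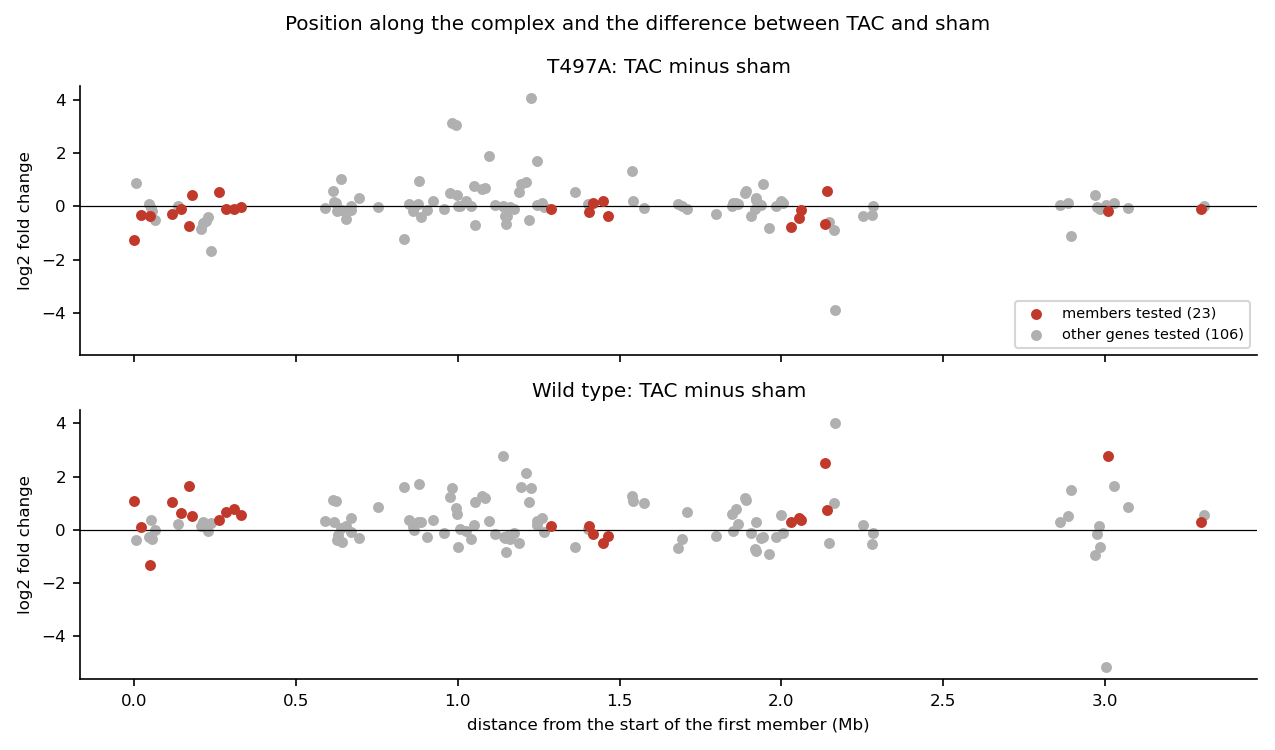
Log2 fold change between TAC and sham of 23 tested members and 106 other tested genes against the distance, in megabases, from the start of the first member of the complex, in T497A (top) and wild type (bottom). Of all 28 tested members 5 lie above 0 in T497A and 24 in wild type. The 28 include the 5 members with near-absent groups, which are left out of the plot. The direction of those 5 follows which groups hold the libraries with their reads.

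The promoters of members are shown for what they share. In the RefSeq table (GRCm38.p6; 250 bases before to 50 after the start) 32 members have 35 promoters. CCAAT, the letters bound by the factor NF-Y in the shared promoter module of class I and class II genes, was found on either strand in 31 of the 35 (88.6%), against 37.4% of all 32851 promoters. The letters GAAA, any 2 bases and GAAA again, the core of the interferon-stimulated response element, were found in 2 (5.71%, against 3.44%), H2-T23 and H2-T22. GAAGTGAAA, a form of it chosen after the sequences were seen, was in 8 (22.9%, against 0.505%), among them H2-K1, H2-D1 and H2-Q10. It was in neither H2-T23 nor H2-T22, so no member's promoter held both it and the core. A match is a description of letters and not a bound site. Below are a classical class I gene, the Qa-1 gene, both kinds of class II chain gene, the loading gene called in wild type, and H2-Q10, which holds no CCAAT in this window; capitals mark CCAAT, the core and GAAGTGAAA on either strand.

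H2-D1 promoter, chr17:35262844-35263143, plus strand: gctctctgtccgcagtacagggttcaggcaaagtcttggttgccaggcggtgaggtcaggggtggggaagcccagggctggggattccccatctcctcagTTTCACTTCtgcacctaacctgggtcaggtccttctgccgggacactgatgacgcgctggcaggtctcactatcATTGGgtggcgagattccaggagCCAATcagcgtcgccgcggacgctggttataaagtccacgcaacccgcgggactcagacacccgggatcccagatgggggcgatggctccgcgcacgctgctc

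H2-T23 promoter, chr17:36032652-36032951, minus strand: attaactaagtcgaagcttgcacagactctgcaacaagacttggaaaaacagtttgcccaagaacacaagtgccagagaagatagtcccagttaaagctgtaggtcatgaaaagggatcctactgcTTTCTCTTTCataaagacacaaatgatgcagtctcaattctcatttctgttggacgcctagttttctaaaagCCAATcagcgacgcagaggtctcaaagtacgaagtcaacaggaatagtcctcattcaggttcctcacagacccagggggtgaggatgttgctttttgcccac

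H2-Aa promoter, chr17:34287774-34288073, minus strand: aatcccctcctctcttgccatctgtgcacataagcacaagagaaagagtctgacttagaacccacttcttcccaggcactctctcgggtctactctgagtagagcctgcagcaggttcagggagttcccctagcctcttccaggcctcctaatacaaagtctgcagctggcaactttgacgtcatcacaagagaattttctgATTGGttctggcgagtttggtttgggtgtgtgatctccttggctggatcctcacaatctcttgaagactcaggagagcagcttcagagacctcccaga

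H2-Eb1 promoter, chr17:34305617-34305916, plus strand: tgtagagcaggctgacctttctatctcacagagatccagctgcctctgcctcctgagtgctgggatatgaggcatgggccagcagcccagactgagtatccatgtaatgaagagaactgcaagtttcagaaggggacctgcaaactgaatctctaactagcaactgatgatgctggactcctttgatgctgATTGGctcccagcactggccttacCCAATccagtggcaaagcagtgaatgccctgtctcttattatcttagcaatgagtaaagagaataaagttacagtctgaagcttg

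H2-DMb2 promoter, chr17:34144999-34145298, plus strand: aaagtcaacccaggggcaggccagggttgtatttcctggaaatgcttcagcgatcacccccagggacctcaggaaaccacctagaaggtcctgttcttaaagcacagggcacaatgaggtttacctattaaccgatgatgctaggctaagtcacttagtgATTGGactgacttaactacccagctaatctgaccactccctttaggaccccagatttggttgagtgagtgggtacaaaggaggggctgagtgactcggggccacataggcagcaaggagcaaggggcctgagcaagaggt

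H2-Q10 promoter, chr17:35469839-35470138, plus strand: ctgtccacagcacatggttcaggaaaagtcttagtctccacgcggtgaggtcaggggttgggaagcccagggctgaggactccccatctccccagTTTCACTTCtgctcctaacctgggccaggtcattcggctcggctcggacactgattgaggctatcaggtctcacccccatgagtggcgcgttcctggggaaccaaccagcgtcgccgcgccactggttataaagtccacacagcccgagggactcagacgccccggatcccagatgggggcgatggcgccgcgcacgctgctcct

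CCAAT begins 48 bases before the start in H2-Aa and 90 before it in H2-DMb2 (-48 and -90). It stands in most of the other members' promoters as well, and its part in their levels was not tested.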

How the data were processed

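Left ventricle RNA from 12 mouse samples, 3 per group, was prepared (KAPA mRNA HyperPrep kit) and read from 1 end over 50 cycles, per the labels. Per the submitters' processing notes the authors used Trim Galore 0.6.4, STAR 2.7.3a, featureCounts (Subread 1.6.3) and limma 3.50.3, and these notes name both mm10 and GRCh38. The authors deposited counts of reads for each gene, not normalised. How multi-mapping reads and strand were handled is not given in the sources used here. Groups came from the library names in the labels. Counts were filtered with filterByExpr, scaled with TMM and tested with edgeR 4.0.16 (quasi-likelihood, robust, 1 mean per group over 12 libraries) in R 4.3.3, in 5 comparisons, with Benjamini-Hochberg adjustment over 17699 genes; the test was checked on simulated data. The SE of a fold change from edgeR is its absolute log2 value divided by the square root of the test's F statistic. It therefore restates the test, and for members with few reads it also depends on the prior count. The smallest p of an exact permutation of 3 libraries against 3 is 0.1. All 45 members matched GENCODE M21 by gene ID without version. The members and lists were chosen with earlier results of these data known. Named were H2-K1, H2-D1, H2-Aa, H2-Ab1, H2-Eb1, H2-DMa and H2-DMb1, up to 4 called members per comparison with the smallest p, and B2m, Tap1, Nlrc5, Cd74, Ciita and up to 3 called partners per comparison; other genes named were chosen after their values were seen. Alternatives were other scalings, tests (DESeq2 1.42.0, limma-voom 3.58.1), filters (1 CPM in 6 samples), a replicate block and each library left out; without the 3 libraries holding H2-Ea was added after seeing the data. The replicate numbers did not pair the libraries.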

Additional observations from a re-analysis of the deposited data

Results flagged for a closer look

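The difference itself was tested with edgeR's quasi-likelihood test of the interaction, adjusted over all genes. A negative value is a lower TAC effect in T497A. By this test the TAC effect was called apart between the genotypes for 3 members and 8 of the 25 partners. Among members these were H2-DMb2 (-2.40 ± 0.71, adjusted p = 0.020), H2-T-ps (-3.20 ± 1.09, adjusted p = 0.040) and H2-Q1 (-12.65 ± 4.05, adjusted p = 0.046). The size for H2-Q1 depends on the prior count, since it had 3 reads or fewer in 9 libraries. Its direction follows which groups hold the 3 libraries with H2-Ea, and a TAC effect apart from that was not tested. H2-Q1 was called in 10 of 21 alternative settings. None of the 3 members was called when T497A sham 1 was left out.

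Of the partners of class I, Pdia3 (-0.95 ± 0.15, adjusted p = 0.00045) and Calr (-0.55 ± 0.09, adjusted p = 0.00048) were lower and Psme1 (0.58 ± 0.18, adjusted p = 0.028) was higher. Of the partners of class II, 5 were lower, Ctsl (-0.64 ± 0.10, adjusted p = 0.00033), Ifi30 (-1.38 ± 0.26, adjusted p = 0.0016), Lgmn (-0.90 ± 0.17, adjusted p = 0.0023), Marchf1 (-1.42 ± 0.35, adjusted p = 0.0075) and Ctss (-1.61 ± 0.41, adjusted p = 0.017). Over 23 alternative settings Pdia3, Calr, Ctsl, Ifi30, Lgmn and Ctss were called in all 23, Marchf1 in 22 and Psme1 in 14. Marchf1 was not called without the 3 libraries that hold H2-Ea (-0.58, adjusted p = 0.23). Psme1 was not called without T497A TAC 1 (0.57), T497A TAC 3 (0.55), wild-type TAC 2 (0.52), T497A sham 2 (0.48), T497A sham 3 (0.51), wild-type sham 1 (0.59) or wild-type sham 3 (0.52), with library totals (0.28) or with no filter (0.58).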

How the results depend on the processing

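Over the 49 fold changes given above, 1033 of 1118 values under alternative settings kept their direction and their side of the threshold, 62 lost the call, 9 gained it and 14 changed sign. Where a value below differs, the cause was not tested. With library totals in place of TMM factors, 10 members were called higher in wild type with TAC, 3 lower in T497A TAC than in wild-type TAC, and 10 lower in the difference between the TAC effects. DESeq2's own test called 1 lower in T497A with TAC, 6 higher and 2 lower in wild type, 1 higher and 2 lower in T497A TAC than in wild-type TAC, and 8 lower in the difference. Limma-voom with quality weights called 1 higher in T497A, 5 higher in wild type, 2 higher and 5 lower in T497A TAC than in wild-type TAC, and 1 higher and 4 lower in the difference. A stricter filter (1 CPM in 6 samples) removed the low-count members, and 0 were then called higher in wild type, 0 lower in T497A TAC than in wild-type TAC and 0 lower in the difference. With robust estimation off, 1 was higher and 2 lower in T497A TAC than in wild-type TAC, and 9 were lower in the difference. A fit of only the groups compared called 4 lower in T497A TAC than in wild-type TAC.

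Without T497A sham 1, wild-type TAC 1 and wild-type TAC 2 together, 2 members were called higher in T497A with TAC (H2-DMb1 and H2-T10), and 0 higher and 0 lower in wild type, 0 lower in T497A TAC than in wild-type TAC and 0 lower in the difference. There H2-K1 and H2-Aa differed by 0.136 and 0.56 between TAC and sham in T497A, by -0.116 and -0.28 between the sham groups, and H2-Aa by 0.094 between T497A TAC and wild-type TAC; H2-M5 differed by -0.786 in wild type. Under limma-voom H2-Aa differed by 0.172 between TAC and sham in T497A. With 1 library left out at a time, members called ranged from 0 to 2 higher in T497A, 0 to 11 higher and 1 to 2 lower in wild type, 0 to 1 higher and 0 to 9 lower in T497A TAC than in wild-type TAC, and 0 to 7 lower in the difference. Between TAC and sham in T497A, H2-K1 then ranged from -0.553 to 0.129 and H2-Aa from -0.416 to 0.553; between the sham groups H2-K1 ranged from -0.119 to 0.597 and H2-Aa from -0.283 to 0.686; in wild type H2-K1 ranged from -0.095 to 0.355 and H2-D1 from -0.02 to 0.296.

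With the replicate number as a block, the counts of members called did not move (3 higher and 1 lower in wild type, 1 lower in T497A TAC than in wild-type TAC, 3 lower in the difference), and H2-T-ps lost its call in the difference (-3.15). Libraries with the same number did not deviate together (correlations of -0.113 to 0.0742), so the number does not pair them. With 3 libraries a group, and 1 or a few libraries that decide many values, these data limit what can be said of members with few reads.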
